A study of Mus musculus with 12 samples.

Results

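A set of 10 genes whose products act in the adhesion and fusion of myoblasts were followed in C2C12 cells, a long-established line of mouse myoblasts labelled as strain C57BL/6 and used at passages 5 to 10. They were taken by name as a list of 10 genes among the 21232 in the count table: Tmem8c and Gm7325, which encode the fusion proteins myomaker and myomixer, the cadherins Cdh15 and Cdh2, the co-receptor Cdon, the junctional adhesion molecules Jam2 and Jam3, the ferlins Dysf and Myof, and the muscle caveolin Cav3. RNA was sequenced in 4 groups of 3 libraries, with replicates A, B and C. The proliferation group was sampled at 0 h, before the change of medium from 10% FBS to 2% horse serum that starts differentiation. The control group was sampled at 48 h of differentiation without TNF, the TNF group at 48 h of differentiation with TNF, an inflammatory cytokine, at 10 ng/ml, and the Fbxl2 siRNA group at 48 h of differentiation after silencing of Fbxl2, the gene for a substrate-binding subunit of a ubiquitin ligase. No label states whether a non-targeting siRNA was given to the other cells, so silencing of Fbxl2 and the siRNA procedure itself cannot be told apart. Nor do they say whether the replicates came from separate cultures, so p-values measure a spread among libraries that may be technical.

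Myoblasts that leave the cell cycle line up, adhere through cadherins and other surface proteins, and merge their membranes into multinucleated myotubes. Myomaker, a protein that crosses the membrane several times, and myomixer, a small membrane protein found in muscle, together drive the merger. Ferlins and caveolins act at the cell membrane: dysferlin in its repair, myoferlin in fusion, and caveolin-3 in the small membrane pits of muscle cells called caveolae.

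Regulatory sequence was looked up first. The RefSeq promoter table (GRCm38.p6) held windows for 5 of the 10 genes, Cdh15, Cdon, Dysf, Myof and Cav3, with 2 windows for Dysf, and none for Tmem8c, Gm7325, Cdh2, Jam2 and Jam3. The E-box CANNTG, the motif bound by MyoD and related muscle factors, was searched on both strands. It is set in capitals in the 250 bases before the start of the gene with the lowest level in proliferating cells, Cav3, and of the one whose level moved least, Myof. The Cav3 stretch is chr6:112459255-112459504 on the + strand and the Myof stretch chr19:38043578-38043827 on the - strand, both written 5′ to 3′ along the gene.
Cav3: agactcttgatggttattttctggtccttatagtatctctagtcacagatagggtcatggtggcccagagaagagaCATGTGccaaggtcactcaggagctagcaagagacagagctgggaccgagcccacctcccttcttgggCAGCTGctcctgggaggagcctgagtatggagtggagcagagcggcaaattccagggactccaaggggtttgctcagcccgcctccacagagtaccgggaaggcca
Myof: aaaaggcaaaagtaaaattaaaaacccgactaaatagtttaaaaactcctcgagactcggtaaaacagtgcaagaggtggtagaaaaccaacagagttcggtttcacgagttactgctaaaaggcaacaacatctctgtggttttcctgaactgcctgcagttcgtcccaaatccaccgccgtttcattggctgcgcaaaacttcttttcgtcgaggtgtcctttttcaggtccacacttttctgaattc
Cav3 held 2 E-boxes, CATGTG starting 174 bases and CAGCTG 106 bases before the start, and Myof held none. Of all 32851 windows of 300 bases in the table, 72.3% held a CANNTG and 16.3% a CAGCTG, which is one form of CANNTG. Cdh15 held 4 matches to CANNTG in its window, 3 of them within the first 250 bases, and Cdon held none. The Dysf windows held 0 and 1, and that 1 was not wholly within the first 250 bases. The windows of Cdh15 (from 122848124) and Cdon (from 35451826) and the second of Dysf (from 84019136) began inside the gene spans given below. These 3 windows may therefore not mark the first start of their genes. The GC box GGGCGG, which 35.7% of windows held, occurred 3 times at Cdh15 and 1 and 3 times in the windows of Dysf. The 1 in the first Dysf window was likewise not wholly within the first 250 bases. GGAATG, a motif bound by TEAD factors and held by 14.7% of windows, occurred once at Cav3, not wholly within the 250 bases printed above. A core of the MEF2 site (3.7% of windows) and a core of the NF-kappaB site (1.6%), searched in the same way, were not found in the 6 windows of these genes. These are letter matches and not measured sites.

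Library totals ran from 26416978 to 32917763 counts, and no replicates of a group held identical counts or agreed within sampling noise. Levels are given as CPM, the counts relative to the library total scaled by TMM, and 3 counts, taken as the floor, were worth 0.0899 to 0.113 CPM. Of the 21232 genes, 12736 passed a filter on low counts and were tested with edgeR's quasi-likelihood test, and a difference was called at an adjusted p (Benjamini-Hochberg) under 0.05. All 10 genes passed the filter, Cav3 through the 3 groups at 48 h, so that it had to lie higher there than in proliferation. Fbxl2 itself was at 31.8, 32.6 and 34.4 CPM in the control libraries and at 22.5, 20.6 and 23.6 CPM in the siRNA libraries, which is 67.5% of control (edgeR adjusted p = 1.67e-07). The siRNA level was 85.6% of that in proliferation (edgeR adjusted p = 0.0055). With TNF, Fbxl2 was at 87.6% of control (edgeR adjusted p = 0.0137). The 4 markers of myoblasts and early muscle summed to 1730 to 1860 CPM in proliferation, 2160 to 2250 in control, 1230 to 1280 with TNF and 1980 to 2050 with siRNA. The 5 markers of reserve or satellite cells summed to 244 to 260, 246 to 252, 290 to 303 and 247 to 255 CPM in the same order. With TNF against control, 1 of these 5, Cd34, was called higher and 3 were called lower (31.0% and 23.6% of all genes). Cd34 had a mean of 39.3 CPM in control and 109 CPM with TNF. Among markers of other cells, Epcam and Krt5 (epithelium) and Adgre1 (macrophage) had no count in any library, and Ptprc (macrophage), Thy1 (fibroblast), Adipoq and Plin1 (adipocyte) had under 3 counts in each. The 4 endothelial markers summed to at most 2.62 CPM. The 6 macrophage markers summed to 14.4 to 15.4 CPM in proliferation, 8.51 to 9.64 in control, 12 to 13 with TNF and 14 to 16.5 with siRNA, the 4 epithelial markers to 5.56 to 5.84, 7.21 to 7.41, 23.6 to 25.5 and 4.59 to 5.98 CPM in the same order, and the 4 adipocyte markers to 12.8 to 13.7, 5.92 to 6.44, 2.78 to 3.49 and 8.21 to 9.97 CPM. The 5 fibroblast markers summed to 461 to 612 CPM in proliferation, 2270 to 2340 in control, 2060 to 2170 with TNF and 1560 to 1680 with siRNA. With TNF against control, 1 of the 4 tested fibroblast markers was called higher and 2 lower (again beside 31.0% and 23.6% of all genes). Pdgfra went from a mean of 15.8 to 32.4 CPM and Dcn from 488 to 119 CPM. Of the 2 tested epithelial markers, Krt14 was called higher with TNF (5.32 to 23.6 CPM) and Cdh1 lower. Cd14 made up most of the macrophage sum, with means of 13.4 CPM in proliferation, 6.57 in control, 10.4 with TNF and 13.9 with siRNA. Pparg made up most of the adipocyte sum (means of 13.2, 5.97, 3.12 and 9.16 CPM in the same order).

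After 48 h of differentiation 8 of the 10 genes were higher and 1, Jam2, was lower, while Myof did not pass the test. Of all genes tested, 38.4% were called higher and 38.9% lower in the same comparison, so the 8 stand beside a background in which a rise was common. The 10 genes were chosen with earlier results of these data known, so counts of them beside all genes are no independent test. At least 2-fold rises were called for 6 of the 10, Tmem8c, Gm7325, Cdh2, Cdon, Dysf and Cav3, against 12.1% of all genes. Without Cav3, whose rise the filter fixed and which was left out here after the data had been seen, 7 of the other 9 were called higher and 5 at least 2-fold higher. The median log2 fold change of these 9 was 1.15, and over all genes tested -0.001. The 6 markers of differentiated muscle, among them Myh3 and Ckm, all rose, from a sum of 50.1 to 63 CPM in proliferation to 1940 to 2340 CPM in control, and the 4 markers of proliferation all fell, from 1300 to 1390 CPM to 348 to 396 CPM. Their part in the results on the 10 genes was not tested, and in bulk RNA fewer cells of a type and less RNA per cell cannot be told apart.

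In the TNF group, 8 of the 10 were called lower than in control and 0 higher, where 23.6% of all genes were called lower and 31.0% higher. Scaling by library totals alone turned that split over all genes to 3186 higher and 3728 lower. Falls of at least 2-fold were called for 5, Tmem8c, Gm7325, Cdh15, Dysf and Cav3, against 5.19% of all genes. After Fbxl2 siRNA, 9 were called lower and 0 higher, where 29.8% of all genes were called lower and 34.1% higher (4005 higher and 4122 lower with library totals alone). Falls of at least 2-fold were called for 3, Tmem8c, Dysf and Cav3, against 5.07% of all genes. The median log2 fold change of the 10 was -0.92 with TNF and -0.60 with siRNA, and over all genes 0.03 in both. These comparisons share the 3 control libraries, and the choice of the 10 genes limits these counts in the same way as above. Summed markers of differentiated muscle were at 407 to 574 CPM with TNF and 632 to 1010 CPM with siRNA, with all 6 called lower than in control in both, and summed markers of proliferation at 681 to 725 and 742 to 784 CPM, with all 4 called higher. The 4 markers of myoblasts and early muscle were also all called lower with TNF than in control, from 2160 to 2250 CPM down to 1230 to 1280 CPM, and with siRNA 1 was called higher and 2 lower. Their part in the falls was not tested.

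**Figure D1:**
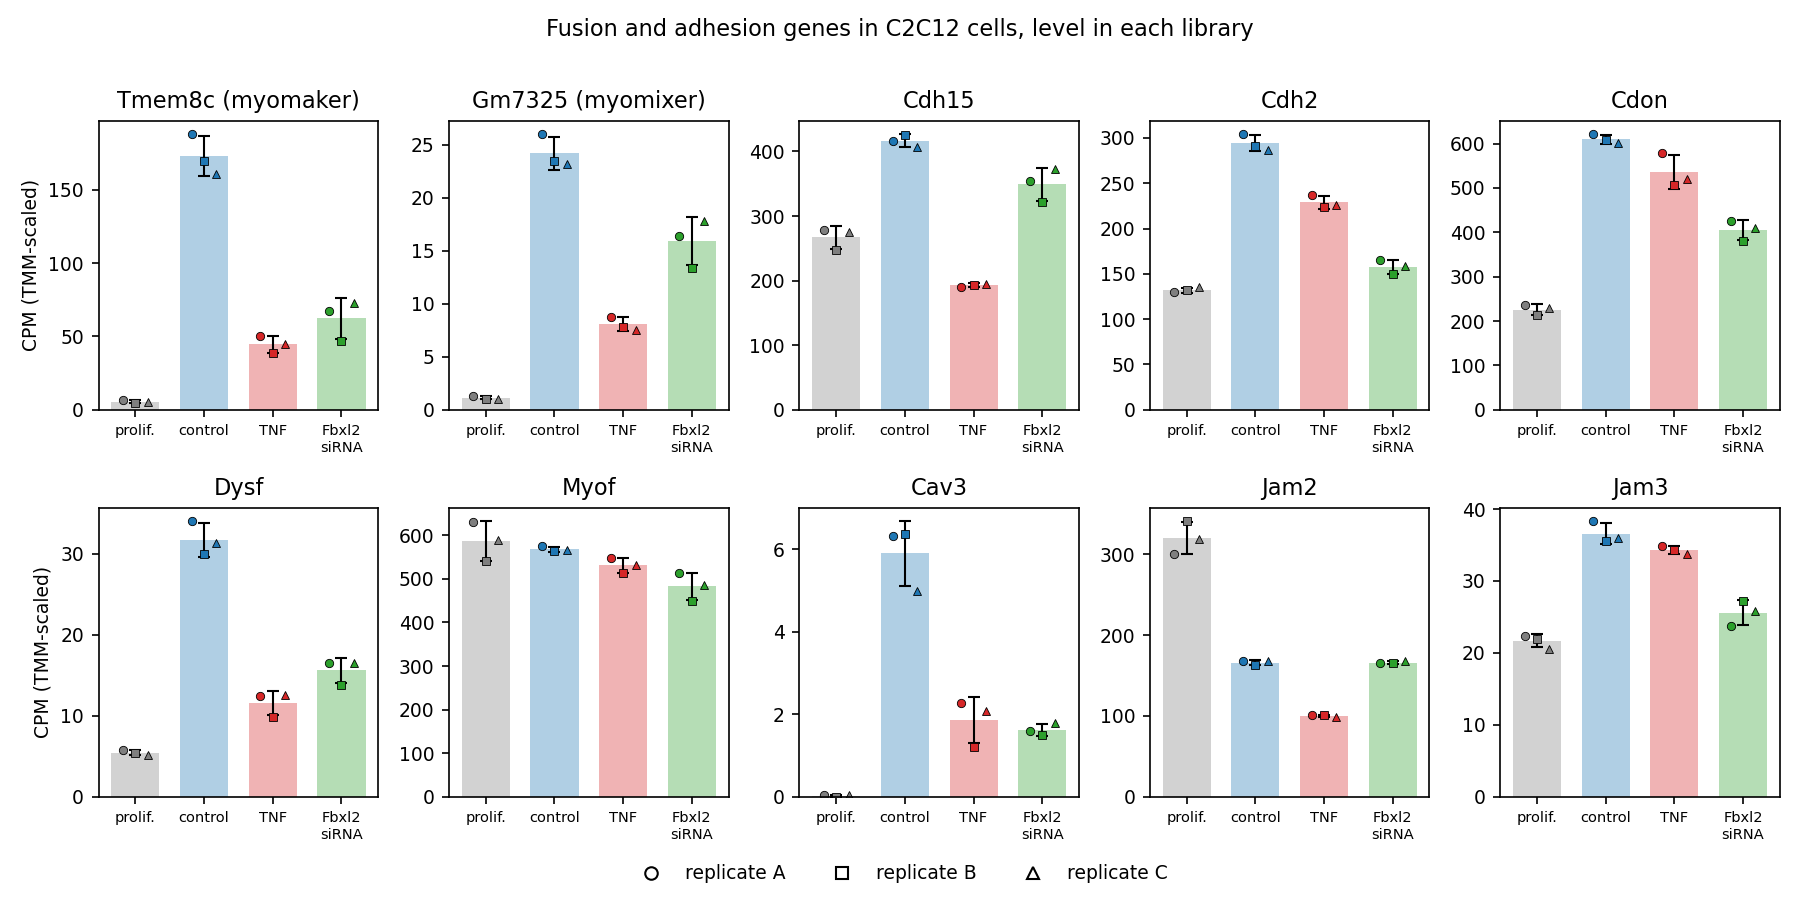
Level of each of the 10 genes in CPM (vertical axes, each from 0) in the 4 groups. Bars are means of 3 libraries, error bars SD, and symbols the libraries A, B and C. Tmem8c rose from a mean of 5.61 to 173 CPM on differentiation and lay at 44.7 CPM with TNF, while Myof kept means between 483 and 587 CPM in the 4 groups.

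The 2 fusion proteins had the steepest rises after Cav3. Tmem8c (chromosome 2, 27061636 to 27072179, - strand, GRCm38; now named Mymk) stood at 6.68, 4.73 and 5.42 CPM in the proliferation libraries A, B and C and at 188, 170 and 161 CPM in control. It stood at 50.2, 38.8 and 45.2 CPM with TNF and 67.2, 46.6 and 73.1 CPM with siRNA. The control libraries lay above all others and the proliferation libraries below all others, while the TNF and siRNA libraries overlapped. The rise on differentiation was 30.7-fold (log2 fold change 4.94, SE 0.21, edgeR adjusted p = 1.67e-08). TNF cells held 25.9% of the control level (log2 -1.95, SE 0.17, adjusted p = 7.07e-06) and siRNA cells 36% (log2 -1.47, SE 0.16, adjusted p = 3.59e-05). The difference between TNF and siRNA, log2 -0.47 (95% interval -0.86 to -0.09, edgeR adjusted p = 0.0383), lost its call without TNF replicate B (adjusted p = 0.119) or C (0.0819) and without siRNA replicate A (0.106) or C (0.118).

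Gm7325 (chromosome 17, 45600971 to 45602102, - strand, GRCm38; now named Mymx) stood at 1.28, 1.04 and 1.05 CPM in proliferation and 26, 23.5 and 23.2 CPM in control. It stood at 8.8, 7.8 and 7.55 CPM with TNF and 16.4, 13.4 and 17.8 CPM with siRNA. No 2 of the 4 groups overlapped, in the order control, siRNA, TNF and proliferation from high to low. The rise on differentiation was 21.4-fold (log2 4.42, SE 0.13, edgeR adjusted p = 6.98e-17), and TNF cells held 33.3% of control (adjusted p = 9.49e-12). After siRNA the level was 65.3% of control (adjusted p = 3.34e-06), and with TNF it was 51% of that with siRNA (log2 -0.97, SE 0.10, edgeR adjusted p = 3.54e-08).

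The transcripts of the 2 fusion proteins had the same order of group means, while their ratio differed between some groups. Within a library, the ratio of Tmem8c to Gm7325 counts was 4.97 ± 0.373 (SD, n = 3) in proliferation, 7.14 ± 0.172 in control, 5.56 ± 0.527 with TNF and 3.9 ± 0.361 with siRNA. The siRNA libraries, at 4.1, 3.48 and 4.11, lay below those of every other group, and the control libraries above. In proliferation the ratio rested on 39, 28 and 32 counts of Gm7325. Its gap to the siRNA libraries may therefore lie within counting error and was not tested. Those of TNF (5.71, 4.97 and 5.99) and proliferation (5.21, 4.54 and 5.16) overlapped. Between siRNA and control the ratio differed 1.84-fold. With 3 libraries against 3, an exact two-sided permutation test cannot go below p = 0.1, and that value was reached in each of the 16 comparisons of the 4 ratios described here (Benjamini-Hochberg adjusted p = 0.1).

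The cadherins are calcium-dependent adhesion proteins that bind their like on a neighbouring cell. Cdh15 (M-cadherin; chromosome 8, 122847966 to 122867397, + strand, GRCm38) stood at 279, 247 and 275 CPM in proliferation, 417, 426 and 407 CPM in control, 190, 193 and 195 CPM with TNF and 354, 321 and 373 CPM with siRNA. Its 4 groups did not overlap, and it was the one gene of the 10 that rose on differentiation and lay lower with TNF than in proliferating cells. The rise on differentiation was 1.56-fold (edgeR adjusted p = 1.19e-09). TNF cells held 46.3% of control (log2 -1.11, SE 0.06, edgeR adjusted p = 6.55e-13) and 72.1% of the proliferation level (log2 -0.47, adjusted p = 1.8e-07). With siRNA the level was 83.8% of control (log2 -0.25, SE 0.05, adjusted p = 0.000412).

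Cdh2 (N-cadherin; chromosome 18, 16588877 to 16809246, - strand, GRCm38) was ordered differently. It stood at 130, 132 and 135 CPM in proliferation, 304, 291 and 287 CPM in control, 237, 224 and 226 CPM with TNF and 165, 150 and 159 CPM with siRNA. Its groups did not overlap either, and siRNA lay closest to proliferation. The level was 53.7% of control with siRNA (log2 -0.90, SE 0.05, edgeR adjusted p = 1.49e-12) and 77.9% with TNF (log2 -0.36, SE 0.05, adjusted p = 1.02e-06). The direct difference was 1.45-fold higher with TNF than with siRNA (adjusted p = 3.08e-09), whereas Cdh15 was 1.81-fold lower (adjusted p = 2.97e-11).

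The Cdh2 to Cdh15 ratio within a library was 0.496 ± 0.0356 (SD, n = 3) in proliferation, 0.706 ± 0.0234 in control, 1.19 ± 0.0539 with TNF and 0.453 ± 0.024 with siRNA. TNF libraries, at 1.25, 1.16 and 1.16, lay above those of all other groups, and the ratio was 2.63-fold higher with TNF than with siRNA (exact permutation p = 0.1, the smallest possible).

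**Figure D2:**
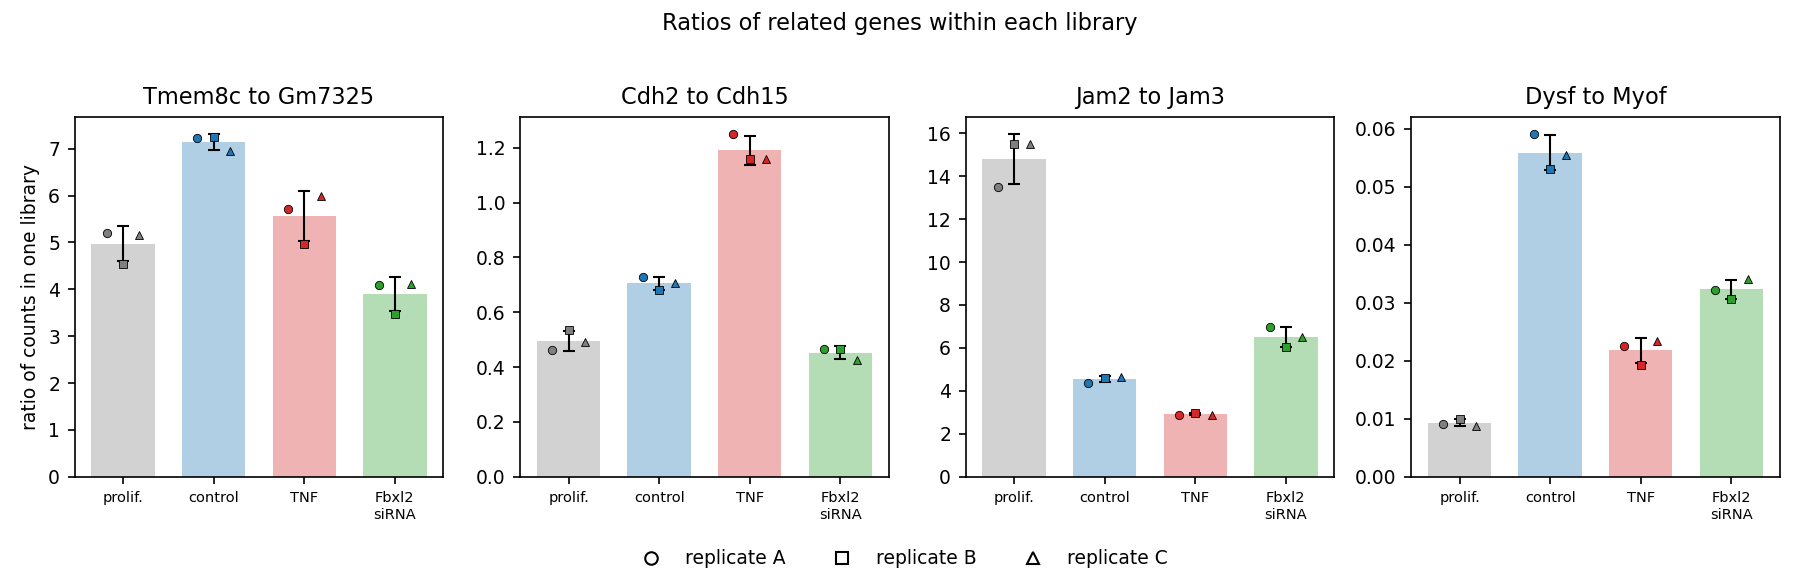
Ratios of counts of related genes (vertical axes, each from 0) in the 4 groups, with bars for the mean of 3 libraries, error bars for SD and symbols for libraries A, B and C. Cdh2 to Cdh15 averaged 1.19 with TNF and 0.453 with siRNA, Jam2 to Jam3 14.8 in proliferation and 2.92 with TNF, and Dysf to Myof 0.0559 in control and 0.00931 in proliferation.

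Cdon encodes a surface protein of the immunoglobulin superfamily that binds cadherins at sites of cell contact and promotes myogenic differentiation, and is also a co-receptor for Hedgehog proteins. It lies on chromosome 9 (35421128 to 35507652, + strand, GRCm38). It stood at 237, 213 and 229 CPM in proliferation, 621, 609 and 601 CPM in control, 579, 507 and 521 CPM with TNF and 426, 381 and 409 CPM with siRNA, and no groups overlapped. Differentiation raised it 2.69-fold (edgeR adjusted p = 4.46e-15). The TNF level was 87.8% of control (log2 -0.19, SE 0.06, adjusted p = 0.00686), a call lost when the replicates lettered C were left out of every group (adjusted p = 0.112). The siRNA level was 66.4% of control (log2 -0.59, SE 0.06, edgeR adjusted p = 1.19e-08), and the TNF level 1.32-fold above that with siRNA (adjusted p = 2.76e-06).

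Jam2 and Jam3, whose proteins JAM-B and JAM-C bind each other across cell contacts, moved in opposite directions on differentiation. Jam2 (chromosome 16, 84774123 to 84825928, + strand, GRCm38) stood at 301, 341 and 319 CPM in proliferation, 168, 163 and 168 CPM in control, 101, 101 and 98.2 CPM with TNF and 166, 165 and 168 CPM with siRNA. Control and siRNA libraries overlapped and the other groups stood apart, with proliferation highest and TNF lowest. Control held 51.9% of the proliferation level (log2 -0.95, SE 0.05, edgeR adjusted p = 1.12e-13), and TNF cells 60.3% of control (log2 -0.73, SE 0.05, adjusted p = 3.62e-11). Between siRNA and control the log2 difference had a 95% interval of -0.10 to 0.10 (edgeR adjusted p = 0.99).

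Jam3 (chromosome 9, 27097384 to 27155421, - strand, GRCm38) stood at 22.4, 22 and 20.6 CPM in proliferation and 38.3, 35.5 and 36 CPM in control. It stood at 34.9, 34.3 and 33.8 CPM with TNF and 23.8, 27.2 and 25.8 CPM with siRNA. The TNF libraries lay just under the control libraries, at a log2 difference of -0.09 (95% interval -0.21 to 0.03) that did not pass the test (edgeR adjusted p = 0.175), although it did under scaling by library totals (adjusted p = 0.0335). The siRNA level was 69.9% of control (log2 -0.52, SE 0.06, edgeR adjusted p = 1.89e-07). Jam2 was therefore lower with TNF and Jam3 lower with siRNA, and both direct differences between the treatments were called: Jam2 was 1.66-fold lower with TNF than with siRNA (adjusted p = 2.75e-11) and Jam3 1.34-fold higher (adjusted p = 3.47e-06). Exons of Jam3 overlap those of Gm48796 on the opposite strand, and whether counting used the strand is not given in the sources used here; their reads cannot be told apart. The Jam2 to Jam3 ratio was 14.8 ± 1.16 (SD, n = 3) in proliferation, 4.54 ± 0.141 in control, 2.92 ± 0.032 with TNF and 6.51 ± 0.472 with siRNA, with no overlap between groups.

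The ferlins are large membrane proteins with several calcium-binding C2 domains. Dysf (chromosome 6, 84008590 to 84211060, + strand, GRCm38) stood at 5.79, 5.36 and 5.19 CPM in proliferation, 34, 29.9 and 31.3 CPM in control, 12.4, 9.89 and 12.5 CPM with TNF and 16.5, 13.8 and 16.5 CPM with siRNA. Its groups did not overlap. It rose 5.83-fold on differentiation (log2 2.54, SE 0.10, edgeR adjusted p = 1.93e-15), and its level was 36.5% of control with TNF (adjusted p = 8.8e-12) and 49.1% with siRNA (adjusted p = 1.26e-09). Dysf with TNF was at 74.4% of its level with siRNA (edgeR adjusted p = 0.00046). Exons of Gm15475 and Gm33024 overlap Dysf on the opposite strand, so the same limit holds for its counts.

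Myof (chromosome 19, 37899036 to 38043577, - strand, GRCm38) stood at 630, 540 and 590 CPM in proliferation, 575, 563 and 566 CPM in control, 548, 513 and 532 CPM with TNF and 513, 450 and 485 CPM with siRNA. Proliferation libraries overlapped those of control and TNF, and the lowest TNF library, at 513 CPM, was at the level of the highest siRNA library. Control differed from proliferation by log2 -0.05 (95% interval -0.16 to 0.07, edgeR adjusted p = 0.455) and TNF from control by -0.10 (-0.21 to 0.02, adjusted p = 0.154). The siRNA level was 85% of control (log2 -0.23, SE 0.06, edgeR adjusted p = 0.00106). TNF was 1.1-fold above siRNA (edgeR adjusted p = 0.0389), a call lost without TNF replicate A (adjusted p = 0.121) or C (0.0842) and without siRNA replicate B (0.192) or C (0.0788). The 2 ferlins therefore separated on differentiation: Dysf to Myof within a library was 0.00931 ± 0.000574 (SD, n = 3) in proliferation, 0.0559 ± 0.00304 in control, 0.0218 ± 0.0022 with TNF and 0.0323 ± 0.00171 with siRNA.

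Cav3 (chromosome 6, 112459505 to 112472872, + strand, GRCm38) was close to absent before differentiation, with 2 counts over the 3 proliferation libraries, 0.0329, 0 and 0.0329 CPM. It stood at 6.32, 6.37 and 5 CPM in control, 2.27, 1.21 and 2.09 CPM with TNF and 1.6, 1.5 and 1.78 CPM with siRNA. The proliferation libraries were under the floor of 3 counts, the control libraries were highest, and the TNF and siRNA libraries overlapped. The ratio of summed, scaled counts to proliferation was 260 for control, with a 95% interval of 71.6 to 2150 that covers counting error only, and 82.4 (22.5 to 687) for TNF and 71 (19.3 to 592) for siRNA. The TNF level was 31.7% of control (log2 -1.66, SE 0.17, edgeR adjusted p = 6.97e-08) and the siRNA level 27.5% (log2 -1.86, SE 0.18, adjusted p = 1.7e-08). TNF and siRNA differed by log2 0.21 (95% interval -0.23 to 0.65, edgeR adjusted p = 0.408), an interval that leaves room for a difference in either direction.

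**Figure D3:**
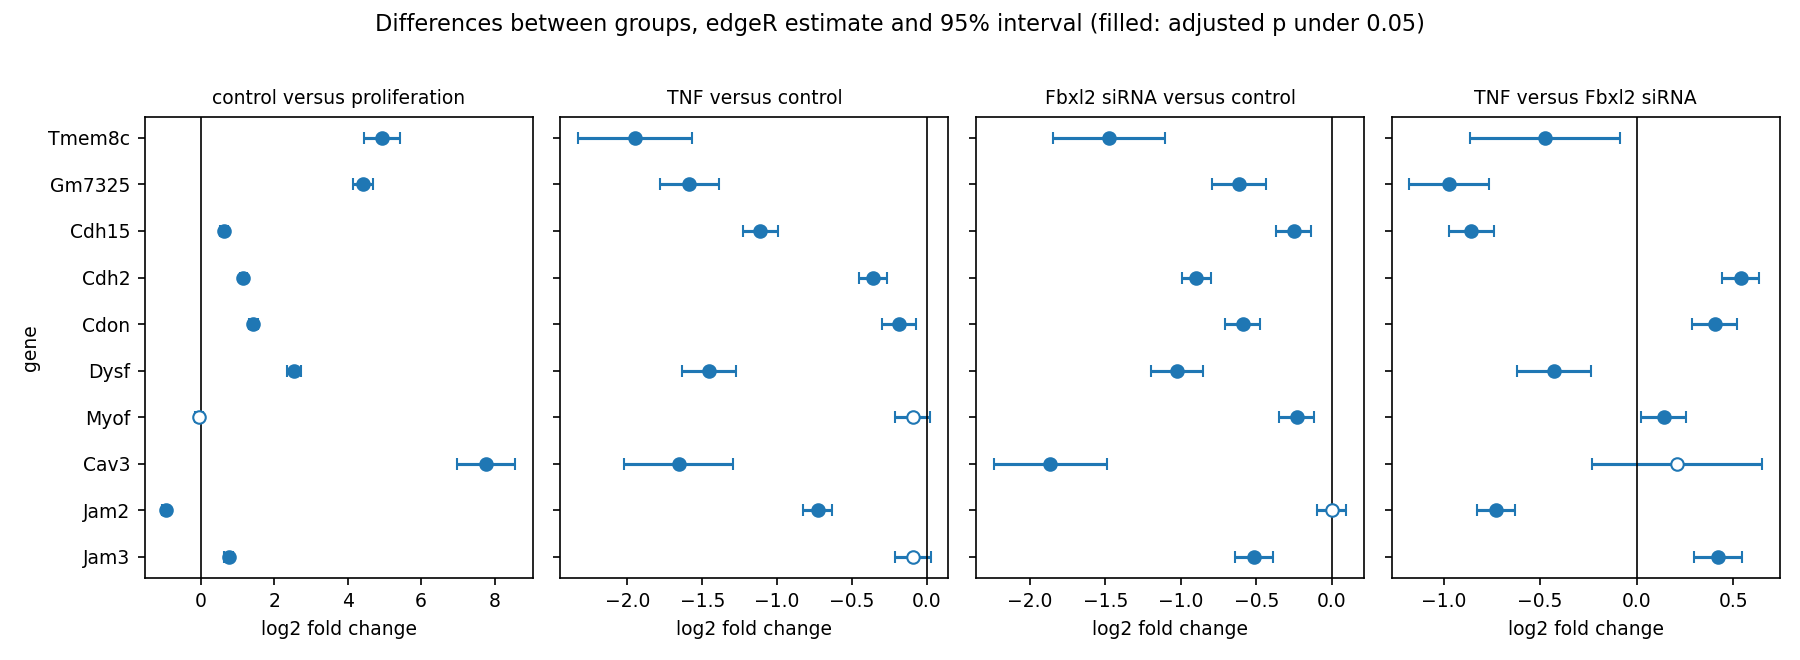
Log2 fold change of each gene (horizontal axes) in 4 comparisons, with edgeR's estimate as a point, its 95% interval as a bar, and filled points for an adjusted p under 0.05. In TNF against siRNA, Cdh2, Cdon, Jam3 and Myof lie to the right of 0 and Tmem8c, Gm7325, Cdh15, Dysf and Jam2 to the left. Cav3 lies to the right as an open point.

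The TNF and Fbxl2 siRNA groups were set directly against each other as well. In TNF cells 4 of the 10, Cdh2, Cdon, Jam3 and Myof, were called higher than in siRNA cells and 5, Tmem8c, Gm7325, Cdh15, Dysf and Jam2, lower, where 29.9% of all genes were called higher and 30.6% lower (3111 higher and 4717 lower with upper-quartile factors). No difference reached 2-fold, where 5.43% of all genes were called at least 2-fold higher and 5.18% at least 2-fold lower. The largest were those of Gm7325, at 1.96-fold, and Cdh15, at 1.81-fold. Markers of differentiated muscle were lower with TNF in 5 of 6 cases and those of myoblasts and early muscle in 4 of 4, and of the 4 markers of proliferation 1 was higher and 1 lower. Markers of smooth muscle, 4 genes of which Acta2 and Tagln are also made by myoblasts, summed to 4010 to 4150 CPM with TNF and 1830 to 1960 CPM with siRNA, 3410 to 3590 CPM in control and 669 to 675 CPM in proliferation. Myh11 was too low to be tested. With siRNA against proliferation, 2 of the 3 tested were called higher and 1, Cnn1, lower (means of 1.94 and 3.01 CPM). Of all genes, 30.9% were called higher and 31.1% lower there. The part of these markers in the difference of Cdh2 and Cdon was not tested.

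Both treated groups were also set against proliferation. With TNF, 7 genes were called higher and 3, Cdh15, Jam2 and Myof, lower (36.3% and 36.5% of all genes), or 6 and 3 of 9 without Cav3. The fall of Myof (edgeR adjusted p = 0.0271) lost its call without proliferation replicate A (adjusted p = 0.145) or C (0.0669) and without TNF replicate B (0.105) or C (0.0595). With siRNA, 8 were higher and 2, Jam2 and Myof, lower (30.9% and 31.1% of all genes), or 7 and 2 of 9 without Cav3. The rise of Jam3 there (log2 0.24, edgeR adjusted p = 0.00201) lost its call without the replicates lettered C in every group (adjusted p = 0.0867). Placed on the log2 scale between proliferation (0%) and control (100%), Tmem8c reached 60.6% with TNF and 70.1% with siRNA, Gm7325 64.1% and 86.1%, and Dysf 42.9% and 59.6%. The order was the other way for Cdh2, at 68.8% with TNF and 22.2% with siRNA, Cdon, at 86.9% and 58.7%, and Jam3, at 87.6% and 31.8%. Cdh15 lay outside the range with TNF, at -73.5%, and at 60.3% with siRNA. Jam2, which falls on differentiation, lay at 177% with TNF, past control, and at 100% with siRNA.

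In order of level across the 4 groups, control was highest for 8 genes and proliferation for Jam2 and Myof. Neighbours in the order did not pass the test in 5 places: proliferation and control as well as control and TNF for Myof, TNF and siRNA for Cav3, control and siRNA for Jam2, and control and TNF for Jam3.

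Levels of different genes were compared per kilobase of exon, using GENCODE M21 exon lengths, which may not be the authors' gene models. In control cells Cdh15 was highest at 128 ± 2.97 CPM per kb (SD, n = 3), followed by Tmem8c at 114 ± 9.17, Cdon at 79.1 ± 1.32, Myof at 45.1 ± 0.494, Cdh2 at 36.5 ± 1.11, Jam2 at 27.5 ± 0.518, Gm7325 at 23.6 ± 1.5, Jam3 at 11.4 ± 0.475, Cav3 at 5.1 ± 0.674 and Dysf at 3.81 ± 0.249. Tmem8c, in the second place here, was at 3.71 ± 0.654 CPM per kb in proliferation, below Cdh15, Jam2, Myof, Cdon, Cdh2 and Jam3. With TNF, Cdon was highest at 69.4 ± 4.95 CPM per kb and Cdh15 next at 59.3 ± 0.89. That order depends on the length used: with the longest transcript of each gene, Myof was highest with TNF at 74.9 CPM per kb, above Cdon at 71.4 and Cdh15 at 59.3.

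**Figure D4:**
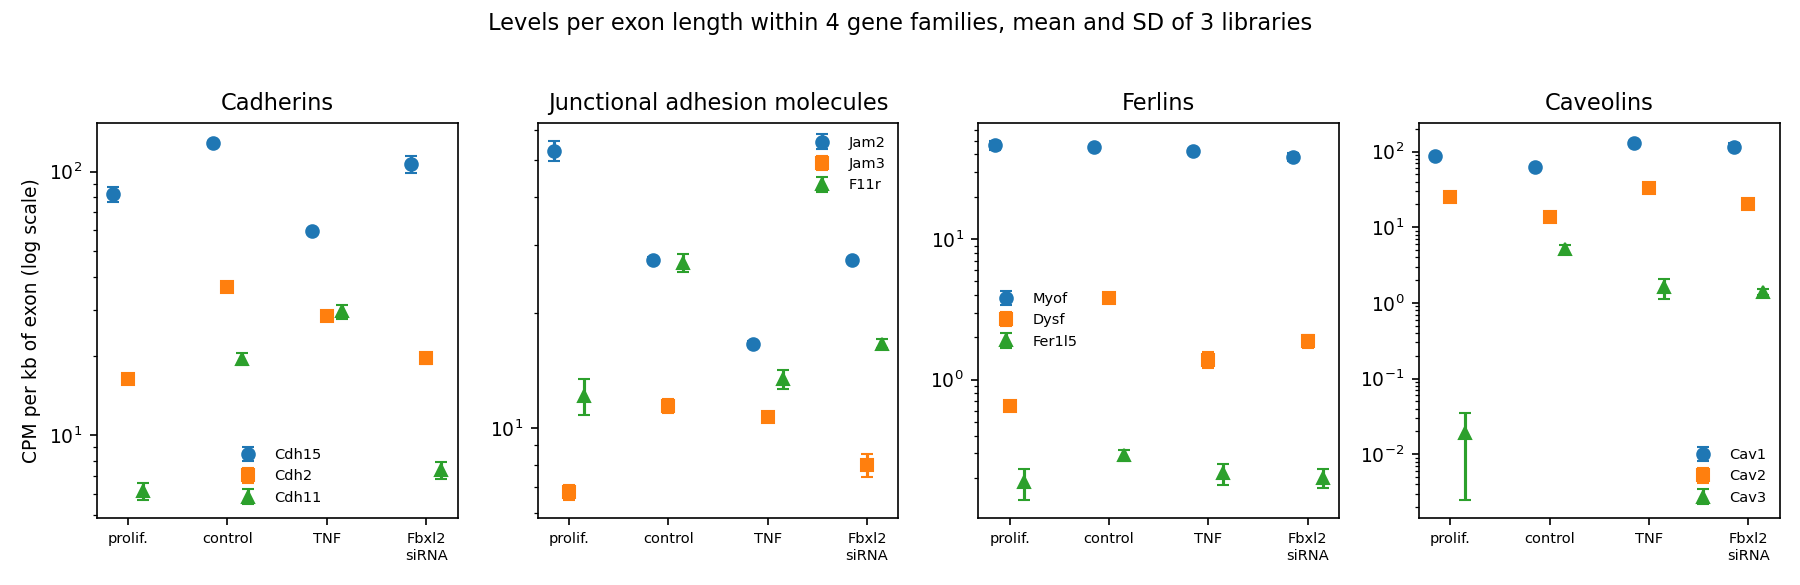
CPM per kb of exon (log scales) of cadherins, junctional adhesion molecules, ferlins and caveolins in the 4 groups, as the mean (symbol) and SD (bar) of 3 libraries. Cav3 averaged 5.1 CPM per kb in control and 1.61 with TNF, against 62.7 and 130 for Cav1, and Cdh11 averaged 29.5 CPM per kb with TNF and 7.39 with siRNA.

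Relatives of the 10 genes did not all follow them. Beside each list's counts of called genes stand the shares of all genes called higher and lower in the same comparison. Cdh11, a cadherin of mesenchymal cells, rose 3.17-fold on differentiation, was 1.52-fold higher with TNF than in control (edgeR adjusted p = 3.33e-08) and 2.64-fold lower with siRNA (adjusted p = 2.38e-13). Among 7 tested genes of other cadherins and catenins, the linkers of cadherins to actin, 7 rose and 0 fell on differentiation (38.4% and 38.9% of all genes), 1, Cdh11, rose and 6 fell with TNF (31.0% and 23.6%), and 0 rose and 6 fell with siRNA (34.1% and 29.8%). The plakoglobin gene Jup was at a log2 difference of -0.79 with TNF and -0.18 with siRNA. The list's median log2 fold changes were 0.45, -0.27 and -0.36, where those of all genes were at 0.00, 0.03 and 0.03.

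Caveolin genes split. Cav1, the main caveolin of cells other than muscle, fell on differentiation (log2 -0.46) and rose with TNF (1.06, edgeR adjusted p = 2.88e-11) and siRNA (0.89, adjusted p = 3.52e-10), and Cav2, its partner, did likewise (-0.91, 1.28 and 0.62). Per library, Cav3 counts were 0.0274 ± 0.00425 (SD, n = 3) of Cav1 counts in control and 0.0041 with TNF and with siRNA (SD 0.00104 and 0.000706). Murc, which encodes the muscle cavin-4, was called in the directions of Cav3, at 1.66, -1.19 and -1.10. Of the 9 genes of caveolae, 4 rose and 4 fell on differentiation (38.4% and 38.9% of all genes), 3 rose and 6 fell with TNF (31.0% and 23.6%), and 5 rose and 3 fell with siRNA (34.1% and 29.8%).

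Among 8 other genes of junctional adhesion, 3 rose and 4 fell on differentiation (38.4% and 38.9% of all genes), 4 rose and 3 fell with TNF (31.0% and 23.6%), and 2 rose and 4 fell with siRNA (34.1% and 29.8%). F11r, which encodes JAM-A, rose 2.23-fold on differentiation and was 2.02-fold lower with TNF (edgeR adjusted p = 3.13e-11) and 1.62-fold lower with siRNA (adjusted p = 7.37e-09). Igsf5, a more distant relative also known as JAM4, fell 13.3-fold on differentiation, from 25.4, 28.2 and 26.8 CPM to 1.5, 2.26 and 2.34 CPM, and stood at 10, 10.6 and 10.7 CPM with siRNA.

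Among 13 tested genes of other ferlins and membrane repair, 5 rose and 6 fell on differentiation (38.4% and 38.9% of all genes), 3 rose and 5 fell with TNF (31.0% and 23.6%), and 7 rose and 4 fell with siRNA (34.1% and 29.8%). Trim72, which encodes the membrane repair protein MG53, rose 35.8-fold on differentiation and was lower by 4.49-fold with TNF and 2.67-fold with siRNA (edgeR adjusted p = 1.39e-07 and 3.7e-06). The annexin gene Anxa2 and its partner S100a10 fell on differentiation (log2 -0.66 and -0.68), rose with siRNA (0.51 and 0.73) and did not pass the test with TNF (0.06 each). Bin1, which shapes membrane tubules, was lower with TNF (-0.77) and higher with siRNA (0.16).

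Among 10 tested partners of Cdon and genes of its signalling, 4 rose and 5 fell on differentiation (38.4% and 38.9% of all genes), 4 rose and 2 fell with TNF (31.0% and 23.6%), and 3 rose and 4 fell with siRNA (34.1% and 29.8%). Boc, the nearest relative of Cdon, was higher with TNF (log2 0.51, edgeR adjusted p = 1.98e-05) and lower with siRNA (-0.45, adjusted p = 0.00018). Neo1, a netrin receptor that Cdon binds, was lower with siRNA (-0.34) and did not pass the test with TNF (-0.06). Gas1, a Hedgehog co-receptor, was lower with both (-0.24 and -0.43).

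Among 8 tested relatives of myomaker and genes of phosphatidylserine exposure, a lipid signal on fusing cells, 2 rose and 2 fell on differentiation (38.4% and 38.9% of all genes), 2 rose and 3 fell with TNF (31.0% and 23.6%), and 2 rose and 2 fell with siRNA (34.1% and 29.8%). Tmem8b, a relative of myomaker, rose on differentiation (log2 1.39) and was lower with TNF (-1.08) and siRNA (-0.68), whereas Tmem8 did not pass the test in these 3 comparisons (-0.26, 0.07 and 0.28). Megf10, an engulfment receptor of satellite cells, was lower with TNF (-0.61) and siRNA (-1.31).

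Among 18 tested genes of other fusion receptors, 10 rose and 6 fell on differentiation (38.4% and 38.9% of all genes), 6 rose and 6 fell with TNF (31.0% and 23.6%), and 6 rose and 5 fell with siRNA (34.1% and 29.8%). Adam12, a metalloprotease of differentiating myoblasts, stood at 77.6, 72 and 74.9 CPM in control, 71.3, 65.8 and 67 CPM with TNF and 27.1, 21.5 and 27.3 CPM with siRNA (edgeR adjusted p = 0.0964 and 8.08e-13 against control). Vcam1, an adhesion receptor that inflammatory signals raise in many cells, rose 3.46-fold with TNF (edgeR adjusted p = 3.1e-17) and did not pass the test with siRNA (log2 -0.01, adjusted p = 0.883). Ncam1, a neural adhesion molecule also made by myotubes, was lower with both (-0.87 and -1.11).

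In the remaining list, actin remodelling in fusion, 9 of 20 genes rose and 8 fell on differentiation (38.4% and 38.9% of all genes), 6 rose and 7 fell with TNF (31.0% and 23.6%), and 8 rose and 9 fell with siRNA (34.1% and 29.8%). Elmo1, which works with Dock proteins to activate Rac, rose 6.19-fold on differentiation, was 2.23-fold lower with TNF and 1.48-fold higher with siRNA (edgeR adjusted p = 3.47e-06 and 0.00129). Dock5 was higher with TNF (log2 0.77) and lower with siRNA (-0.14).

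The genes with the pattern most like that of 4 of the members were found by Pearson's r of log2 CPM over the 12 libraries. The libraries form 4 groups and share their scaling, so r carries no p. It describes mainly the 4 group means. For Myof, whose group means lay close together, it also takes in differences between libraries of a group. For Tmem8c, among 9565 genes searched, the closest were Tnnc1 (0.9971), Myh3 (0.9964), Rap1gap2 (0.9957), Mylpf (0.9957) and Ssc5d (0.9952). For Gm7325 they were Actc1 (0.9983), Ckm (0.9979), Nov (0.9968), Tnnc2 (0.9968) and Myl4 (0.9964). These 2 sets held troponin, myosin and actin genes of the contractile apparatus. For Cdh2 the closest were Mex3a (0.9971), Ctgf (0.9942), Lats2 (0.9937), Cnn3 (0.9931) and Vamp5 (0.9921), and among those for Myof were Chd4 (0.9897), Rad54l2 (0.9689), Pou2f1 (0.9456) and Trim35 (0.9402).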

How the data were processed

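RNA was sequenced in 12 libraries in 4 groups of 3. The authors deposited whole-number read counts per gene symbol for 21232 genes. They used CASAVA and DESeq2 with build mm10, per the submitters' processing notes. Aligner, counter, strand setting and gene annotation were not given in the sources used here. The authors' tables of comparisons were not used here. The count table held 0 columns of no sample and 0 rows without a gene.

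From the counts, edgeR 4.0.16 in R 4.3.3 kept 12736 genes (filterByExpr), scaled libraries by TMM, and fitted 4 group means to all libraries with robust dispersions and 8 residual degrees of freedom. The median biological coefficient of variation was 0.0482. Contrasts were tested with glmQLFTest and adjusted over all genes (Benjamini-Hochberg). SE was taken from the log2 fold change and its F statistic (size over root F). The fit was tested on simulated data. Alternatives were other scalings and filters, DESeq2 1.42.0, limma 3.58.1 (voom), a replicate block, the 2 groups compared alone, and left-out libraries. Library totals ran from 26416978 to 32917763, and floors and counting intervals cover counting error only. Replicates of a group differed by more than sampling noise (chi-square per degree of freedom 1.52 to 18.1).

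The 10 genes and the gene lists were chosen with earlier results of these data known. All 10 are reported in every comparison. From each pathway list, up to 4 genes with the smallest p in a comparison and close relatives of the 10 could be named, and for Tmem8c, Gm7325, Cdh2 and Myof the 5 genes with the highest r, among genes with a mean log2 CPM of at least 3; 1 of these is not reported here. Spans and exon lengths are from GENCODE M21 (GRCm38), and promoter windows from RefSeq.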

Additional observations from a re-analysis of the deposited data

How the results depend on the processing

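Each of the 10 genes was refitted under 18 alternatives per comparison, which gave 1080 values, and 1043 kept their direction and side of the threshold. Among the others, 25 lost a call, 6 gained one and 6 changed sign. The changes of sign were in differences near 0. For Jam2 in siRNA against control, the log2 value was 0.0068 with upper-quartile factors and ran from -0.0234 to 0.0092 with libraries left out (0.0089 without control replicate A). For Myof in control against proliferation it ran from -0.1054 to 0.0083 with libraries left out. Lost calls concerned Tmem8c (8 alternatives, adjusted p 0.0599 to 0.265) and Myof (8, 0.0514 to 0.219) in TNF against siRNA, Myof in TNF against proliferation (7, 0.0595 to 0.195), Cdon in TNF against control (0.112) and Jam3 in siRNA against proliferation (0.0867). In TNF against control, Myof (0.00423 to 0.0285) and Jam3 (0.0314 to 0.0387) gained a call under library totals, upper-quartile factors and a fit of these 2 groups alone, which brought the members called lower from 8 to 10. The causes of these changes were not tested. No scaling moved the median of all genes by over 0.1 on the log2 scale. The order of levels per kb in control was the same with the longest transcript as length, and 9 of 10 ranks differed without a length. Over the genes tested, same-lettered libraries deviated together weakly at most (18 pairs, r from -0.0957 to 0.183, 3 of them over 0.1). Of the 12 libraries, 5 were closest to their own letter. Of the 10 genes, Myof alone was ordered A, C and B from high to low in every group. A gene of the membrane repair list had that order too, so sharing by letter remains possible. A replicate block changed 0 of 60 calls and gave 4013 genes higher and 3057 lower in TNF against control, where the fit without it gave 3954 and 3006. Depth limits Cav3 most, with 2 counts in proliferation.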
